A study of Danio rerio with 12 samples.

Results

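Double knock-out (DKO) larvae, in which both zebrafish panx1 genes, panx1a and panx1b, are knocked out, were compared with larvae of the wild-type TL line to find the genes and functions that differ when neither Panx1 ohnolog is intact. The comparison used the 3 libraries titled double knock-out and the 3 titled TL-control, which are 6 of the 12 libraries of the series. Each library came from a separate pool of whole larvae at 6 days post-fertilization (dpf), labelled as in light and without treatment. The study kept its fish on a daily cycle of light and dark. The other 6 libraries, 3 of panx1a-/- and 3 of panx1b-/- larvae of the same age, enter only where values are set beside those of the DKO. Of 31261 genes counted, 24896 had at least 1 count in all 6 libraries and were tested. The panx1b lesion of the study is a TALEN-made frameshift deletion in the fourth coding exon, and the making of the panx1a lesion is not given in the sources used here. The DKO is a single line, so the loss of both genes and any other difference between this line and TL cannot be told apart. In RNA from whole larvae, fewer cells of a type and less RNA per cell cannot be told apart either.

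Pannexins are vertebrate membrane proteins that form large-pore channels, and Panx1 channels are best known for releasing ATP from cells. Outside the cell, ATP acts on P2X and P2Y receptors before ectoenzymes break it down to adenosine, and in mammals this signalling takes part in inflammation, neuronal transmission and the calcium waves of epithelia. Teleost fish kept a pair of Panx1 genes, panx1a and panx1b, after a genome duplication in their ancestry. Both ohnologs carry the symbol PANX1 in the gene names used here, so they are given by their identifiers and were not assigned to panx1a or panx1b.

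The targeted genes were examined in every library first. PANX1 (ENSDARG00000025285) fell in DKO larvae, with 4.22, 4.10 and 4.34 CPM in DKO larvae, against 12.9, 11.8 and 14.2 CPM in TL controls (CPM, counts scaled to library size after TMM normalization), a log2 fold change (log2FC) of −1.62 with a standard error of 0.13 (adjusted p = 2.66e-05 by the quasi-likelihood test of edgeR, adjusted after Benjamini and Hochberg). Its DKO and TL libraries did not overlap. PANX1 (ENSDARG00000014910) had 3.59, 3.86 and 4.74 CPM in DKO larvae, against 6.81, 5.84 and 4.62 CPM in TL controls, with overlap between the lines, and did not pass the test (log2FC −0.50 ± 0.19, edgeR adjusted p = 0.092). Normalized over all 12 libraries, PANX1 (ENSDARG00000025285) had 4.28, 4.08 and 4.36 CPM in the DKO, 3.84, 4.80 and 4.15 CPM in panx1a-/-, 9.12, 9.85 and 9.78 CPM in panx1b-/- and 13.2, 11.7 and 14.4 CPM in TL. The direct test between the DKO and panx1a-/- larvae gave a log2FC of −0.01 for this gene (edgeR adjusted p = 0.975). Against panx1b-/- it was −1.17 (edgeR adjusted p = 9.08e-05). PANX1 (ENSDARG00000014910) was lower in the DKO than in panx1a-/- larvae, with a log2FC of −1.01 (edgeR adjusted p = 0.000959). Against panx1b-/- larvae its log2FC was −0.64 (edgeR adjusted p = 0.017), which did not pass both cut-offs. Its 12-library values were 3.64, 3.85 and 4.76 CPM in the DKO, 7.50, 8.82 and 8.26 CPM in panx1a-/-, 5.84, 6.24 and 7.12 CPM in panx1b-/- and 6.94, 5.76 and 4.69 CPM in TL. Counts over a whole gene include reads outside the edited bases, so a level near that of TL does not test whether the lesion is present. Of the other pannexins, PANX2 had 2.13, 3.72 and 3.59 CPM in DKO larvae, against 3.72, 5.50 and 4.27 CPM in TL controls and PANX3 had 0.499, 0.512 and 0.576 CPM in DKO larvae, against 1.19, 0.901 and 1.03 CPM in TL controls. Neither passed both cut-offs (edgeR adjusted p = 0.161 for PANX2 and 0.0384 for PANX3).

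Between 21129825 and 22813707 counts were assigned to genes in the DKO libraries and between 20581029 and 29259122 in the TL libraries. Log CPM values correlated with r between 0.992 and 0.996 within the DKO, between 0.987 and 0.993 within TL, and between 0.974 and 0.982 across the lines, each across genes. DKO replicates 2 and 3 were closer to each other than any other pair within the DKO or TL (chi-square per degree of freedom 2.84, against 11.9 to 16.6 for the other pairs). They still differed by more than sampling noise and were kept apart. Principal component 1, with 62.6% of the variance, separated the DKO from TL, and on component 2, with 15.5%, TL replicate 2 lay at one end and TL replicate 1 at the other. Of 109 marker genes of 19 larval cell types, 106 were detected in all 6 libraries. The summed level of the 6 neuronal markers was 874, 1189 and 1177 CPM in DKO larvae, against 691, 1136 and 829 CPM in TL controls, so that TL replicate 2 lay among the DKO libraries, and none of the 6 passed the test.

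A gene was called regulated at an adjusted p under 0.05 together with a p under 0.001 (edgeR). By this rule 1315 genes (5.28% of those tested) fell and 700 (2.81%) rose in DKO larvae. In all 2015 of them (8.09%) the 3 DKO libraries lay outside the range of the 3 TL libraries, which was so for 35.6% of all genes tested. The median log2FC was −0.90 among the genes that fell and 0.82 among those that rose, and 0.00 over all genes tested (0.0014). More than a 2-fold change was found for 562 genes that fell and 259 that rose. At an adjusted p under 0.05 alone, 2649 genes (10.6%) fell and 1671 (6.71%) rose. The counts rested in part on single libraries. Without TL replicate 3 they were 706 fallen and 407 risen, without DKO replicate 2 they were 826 and 427, and without DKO replicate 3 they were 716 and 416. With DKO replicates 2 and 3 summed as 1 library, 845 genes fell and 445 rose. An exact two-sided permutation test of a single gene cannot go below p = 0.1 with 3 libraries a line, so the calls depend on edgeR's pooling of the spread across genes.

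**Figure D1:**
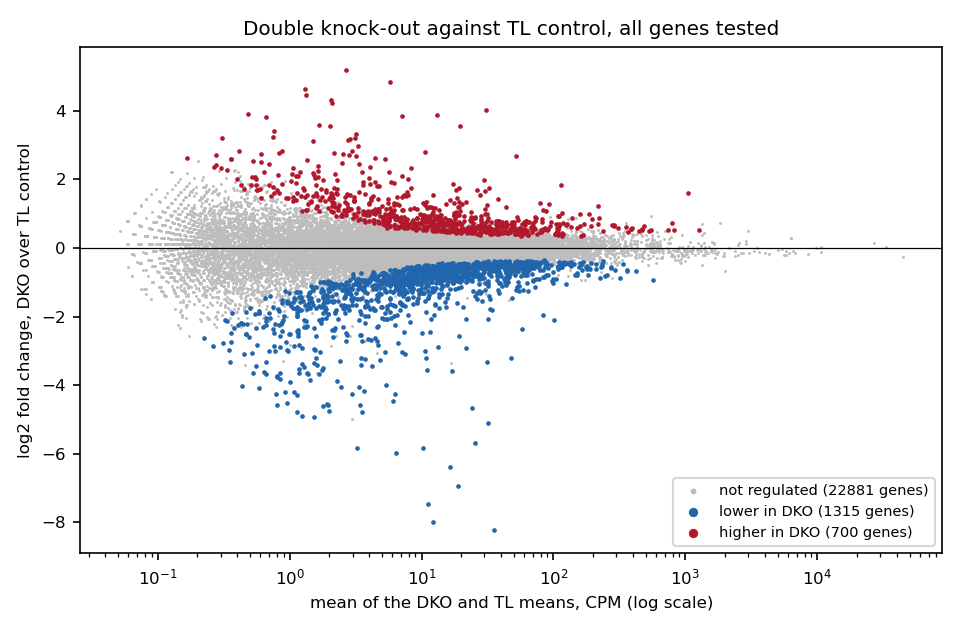
Log2 fold change of every tested gene (DKO over TL control) against its mean level in CPM on a log scale. Blue points mark the 1315 genes that fell, red points the 700 that rose and grey points the genes that were not regulated. The log2 fold changes of regulated genes run from −8.23, a Metazoa_SRP copy, to 5.19 for ENSDARG00000114317.

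Among genes with a functional name, the largest decreases were those of nlrc11, a member of the NLR family of innate immune sensors, of mucms1 and of c6.1, a gene of complement component C6. The gene nlrc11 had 0.0454, 0.0931 and 0.133 CPM in DKO larvae, against 20.8, 25.9 and 26.8 CPM in TL controls (log2FC −7.99 ± 0.25, edgeR adjusted p = 3.38e-08). It was close to silent in all 3 DKO libraries. The gene c6.1 had 0.136, 0.186 and 0.0887 CPM in DKO larvae, against 3.63, 3.70 and 3.09 CPM in TL controls (log2FC −4.61 ± 0.31, edgeR adjusted p = 1.29e-05). Both nlrc11 and c6.1 also fell in panx1a-/- larvae against the same TL libraries, with a log2FC of −6.77 for nlrc11 and −3.78 for c6.1. In panx1b-/- larvae the values were 1.41 and 0.34. The crp5 gene, of the C-reactive protein family, had 1.41, 1.72 and 1.99 CPM in DKO larvae, against 35.6, 9.25 and 15.4 CPM in TL controls (log2FC −3.55 ± 0.46, edgeR adjusted p = 0.00073), and its log2FC was −2.85 without TL replicate 1. The coronin gene coro2ab (−3.22), the Arf family GTPase gene arf4b (−3.04) and ahrra, a repressor of the aryl hydrocarbon receptor (−3.23), were also among the 10 largest decreases. Against TL their log2FC, in the same order, was −2.91, −2.45 and −2.82 in panx1a-/- larvae. In panx1b-/- larvae it was −3.35, −0.03 and −2.67. The other members of the 10 were MMP9, il1b and ifi27.2. For mucms1 the range within TL was wide, with 0.0454, 0.140 and 0.0443 CPM in DKO larvae, against 2.43, 0.285 and 3.84 CPM in TL controls (log2FC −4.80 ± 0.96, edgeR adjusted p = 0.00731), and the call was lost without DKO replicate 1, 2 or 3 or TL replicate 3 (log2FC −5.49 to −4.08). The call for ahrra was lost without DKO replicate 1 (log2FC −2.92), and without TL replicate 1 its log2FC was −2.58.

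Of the increases, fam167aa had 4.22, 4.24 and 3.55 CPM in DKO larvae, against 0.265, 0.237 and 0.142 CPM in TL controls (log2FC 4.22 ± 0.28, edgeR adjusted p = 1.28e-05), and the chloride channel accessory gene clca1 had 41.5, 67.1 and 65.3 CPM in DKO larvae, against 5.58, 2.09 and 3.02 CPM in TL controls (log2FC 4.02 ± 0.29, edgeR adjusted p = 1.91e-05). In both genes even the highest TL library was several-fold under the lowest DKO library. CYTH3 (ENSDARG00000089829), which encodes an exchange factor for Arf GTPases, had 2.63, 3.54 and 3.103 CPM in DKO larvae, against 0.310, 0.332 and 0.142 CPM in TL controls (log2FC 3.59 ± 0.31, edgeR adjusted p = 6.5e-05). The dynein assembly gene pih1d2 (2.71), the peroxidase gene epx (2.60), the U7 snRNP gene LSM10 (ENSDARG00000101222, 2.57), the zinc finger genes znf986 (2.48) and znf1021 (2.40), ccdc15 (2.45) and the amylase gene amy2al1 (2.2) followed. The clca1 and epx genes rose in both single knock-outs against TL as well, where 2.29% of all genes rose in panx1a-/- and 2.8% in panx1b-/- (log2FC 3.36 and 2.51 in panx1a-/-, 3.33 and 2.77 in panx1b-/-). The value of pih1d2 was 3.2 in panx1a-/- and −0.16 in panx1b-/- larvae. The single and double knock-outs share the TL libraries, so these values are set side by side only.

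The genes of lowest p at a mean of at least 10 CPM were taken next, among genes with a functional name. The 20 genes of largest change, among them nlrc11 with a lower p than serpinb14, were set aside first. The serpin gene serpinb14 had 5.63, 4.56 and 5.01 CPM in DKO larvae, against 41.3, 36.8 and 38.1 CPM in TL controls (log2FC −2.93 ± 0.11, edgeR adjusted p = 1.25e-07). CCDC39, which sets the spacing of dynein arms along motile cilia, had 15.0, 13.7 and 16.9 CPM in DKO larvae, against 53.7, 52.3 and 53.3 CPM in TL controls (log2FC −1.81 ± 0.10, edgeR adjusted p = 3.23e-06). Its log2FC against TL was −1.90 in panx1a-/- and −2.67 in panx1b-/- larvae. In the direct test CCDC39 was higher in the DKO than in panx1b-/- larvae (log2FC 0.87, edgeR adjusted p = 0.000755). The zinc finger gene znf1179 (−2.87), the ribosome maturation gene tsr1 (−1.27) and GPR39, a zinc-sensing receptor (−1.23), also fell. For znf1179 the log2FC against TL was −3.13 in panx1a-/- and −2.92 in panx1b-/- larvae. HMOX1, heme oxygenase, rose with 49.6, 49.0 and 52.7 CPM in DKO larvae, against 17.4, 13.2 and 14.2 CPM in TL controls (log2FC 1.75 ± 0.11, edgeR adjusted p = 1.13e-05). PINK1, a kinase that marks damaged mitochondria, had 44.0, 44.1 and 45.6 CPM in DKO larvae, against 17.8, 20.2 and 17.8 CPM in TL controls (log2FC 1.26 ± 0.09, edgeR adjusted p = 1.77e-05). The clock gene nfil3-5 (1.29), the globin gene HBE1 (ENSDARG00000115405, 1.98) and the fetuin gene ahsg1 (1.44) rose as well. Among the 20 genes of largest change and the 10 of lowest p, 8 were also regulated in the same direction in direct tests of the DKO against both single knock-outs. They were mucms1, serpinb14 and tsr1, which fell, and clca1, amy2al1, HMOX1, nfil3-5 and HBE1, which rose, and this group was picked out after the values were seen. The direct tests use the DKO libraries by which the genes were chosen, so the same direction was favoured in advance. Of all genes, 3.76% fell and 2.58% rose in the DKO against panx1a-/-, and 5.48% and 3.84% against panx1b-/-. The level of serpinb14, normalized over 12 libraries, was 5.71, 4.54 and 5.03 CPM in the DKO, 33.4, 39.8 and 35.4 CPM in panx1a-/-, 41.3, 34.3 and 37.9 CPM in panx1b-/- and 42.0, 36.3 and 38.62 CPM in TL. The log2FC of the DKO was −2.83 against panx1a-/- and −2.89 against panx1b-/- (edgeR adjusted p = 7.06e-08 and 4.29e-08). For HMOX1 these differences were 1.68 and 2.3 (edgeR adjusted p = 1.43e-06 and 2.87e-07).

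**Figure D2:**
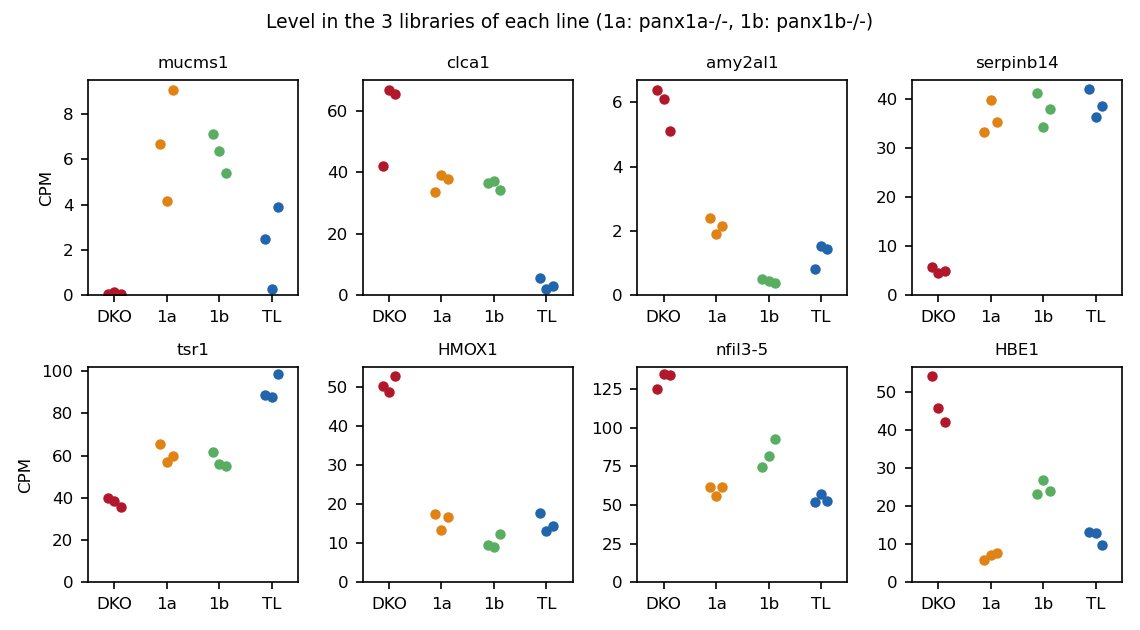
Level in CPM, normalized over all 12 libraries, of the 8 genes among the strongest changes that differed in the DKO from TL and from both single knock-outs. Each point is a library, ordered DKO, panx1a-/- (1a), panx1b-/- (1b) and TL. For serpinb14 the single knock-outs lie near TL, while for tsr1 they lie between the DKO and TL.

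Among genes known only by a clone or copy name, the largest decreases were 3 copies of Metazoa_SRP, the RNA part (7SL) of the particle that guides secreted proteins to the endoplasmic reticulum. Metazoa_SRP (ENSDARG00000116411) had 0.318, 0.140 and 0.222 CPM in DKO larvae, against 62.7, 75.2 and 72.2 CPM in TL controls. Normalized over all 12 libraries, its mean was 0.305 CPM in panx1a-/- and 0.135 CPM in panx1b-/- larvae, against 70.4 CPM in TL. Of 55 copies tested, 20 fell and 4 rose, while their summed CPM differed by 0.03 on the log2 scale. Reads can be shared or split between such near-identical copies, so single copies are uncertain. The largest increases of this kind were those of ENSDARG00000114317 (5.19), ENSDARG00000113834 (4.83) and si:dkey-62k3.5 (4.63). Without TL replicate 3 the first pair had a log2FC of 6.68 and 5.89, and without TL replicate 1 the third had 5.27. The filter left out 4409 genes with a count in some of the libraries. Of these, 10 had no count in any DKO library and at least 10 counts in every TL library, and 2 had the opposite pattern. The gene si:ch211-82g18.3 had 58, 58 and 72 counts in DKO larvae, against 0 in every TL library. With 3 counts per library as the floor, its mean DKO level was 22.5-fold above the mean floor in TL. The macrophage-associated gene mfap4.4, picked out after its counts were seen, had 0 counts in every DKO library, against 59, 15 and 30 counts in TL controls. Its mean TL level was 10.6-fold above the mean floor in the DKO, with a wide range among the TL libraries. The tested genes named MFAP4 had log2FC from −2.82 to 0.02, and none passed both cut-offs. Reads can be split between similar copies, so this single gene is uncertain.

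Functions were then described by lists of genes, 36 of which are shown. The lists describe shares and medians beside those over all genes, and no list was tested as a set.

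**Figure D3:**
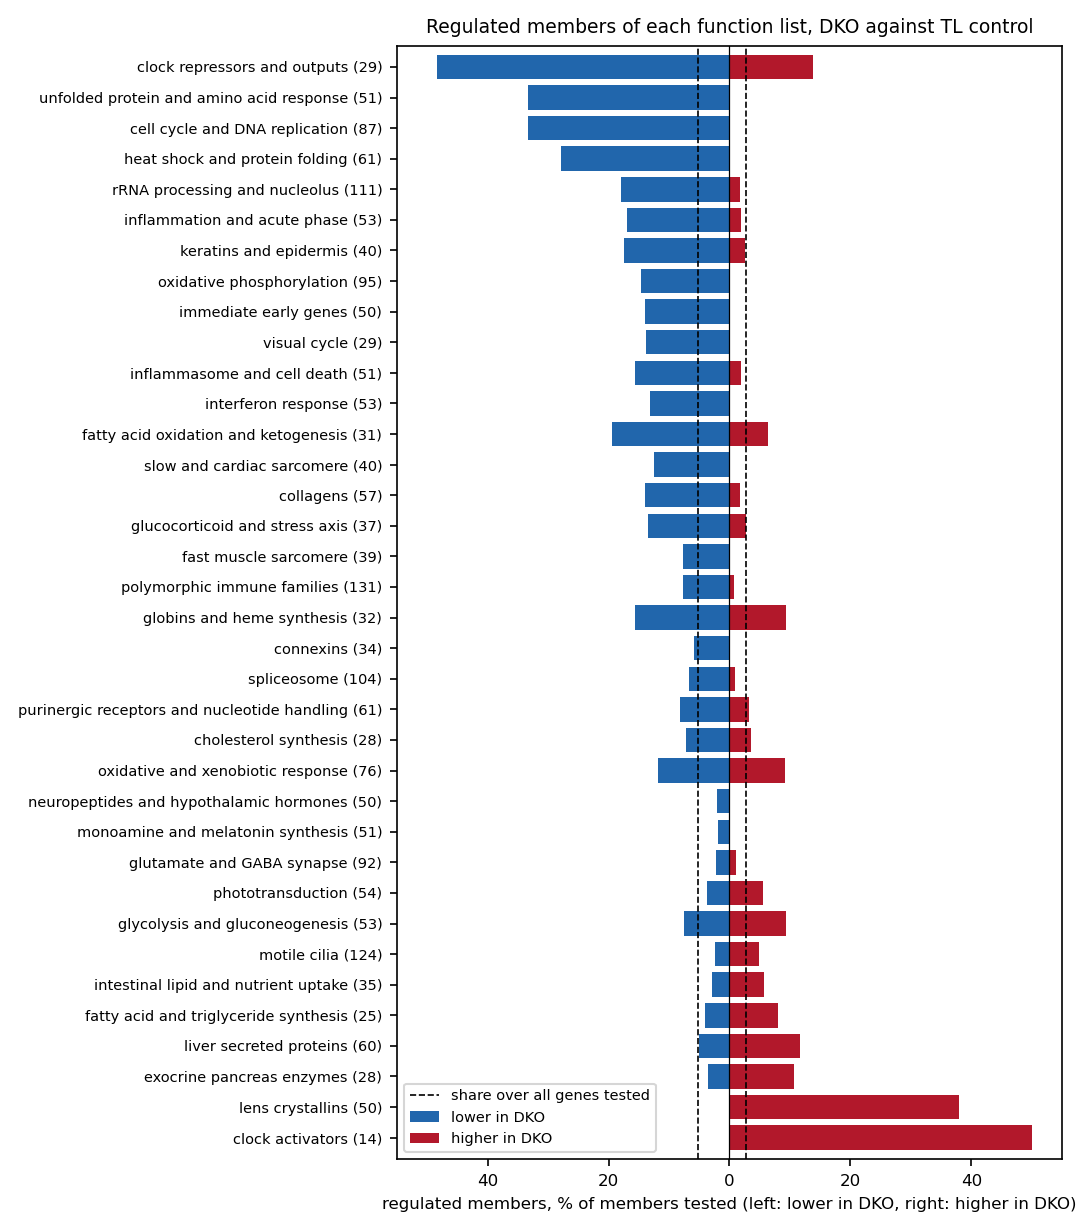
Regulated members of each of the 36 function lists shown, as a percent of the members tested (in parentheses). Bars to the left give members that fell in the DKO and bars to the right those that rose, and dashed lines mark the shares over all genes tested, 5.28% and 2.81%. The bars to the left are longest for the lists of clock repressors and outputs, the unfolded protein and amino acid response and the cell cycle. Those to the right are longest for the lists of clock activators and lens crystallins.

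Genes of DNA replication and cell division were lower in the DKO. Of 87 tested, 29 fell (33.3%, against 5.28% of all genes) and none rose, with 0 at an unadjusted p under 0.05 in that direction (edgeR) and 0 with DESeq2. The median log2FC of the list was −0.73, against 0.00 over all genes. MCM6 (ENSDARG00000057683), a subunit of the helicase that opens DNA for replication, had 4.68, 7.03 and 6.34 CPM in DKO larvae, against 17.3, 18.6 and 21.6 CPM in TL controls (log2FC −1.68 ± 0.15, edgeR adjusted p = 8.7e-05). MCM4, of the same complex, had 6.95, 9.08 and 8.82 CPM in DKO larvae, against 21.7, 20.5 and 25.9 CPM in TL controls (log2FC −1.46 ± 0.14, edgeR adjusted p = 9.16e-05). In both genes the highest DKO library was under the lowest TL library by more than 2-fold. MCM2 (−1.33), MCM3 (−1.35) and MCM5 (−1.38) fell with them, while MCM7 had a log2FC of −0.14 and did not pass the test (this complex was picked out after its values were seen). TK1, which salvages thymidine, had 1.91, 2.56 and 2.66 CPM in DKO larvae, against 8.23, 6.69 and 6.12 CPM in TL controls (log2FC −1.56 ± 0.19, edgeR adjusted p = 0.000461), and CDCA7, a chromatin factor of dividing cells, had 1.41, 2.33 and 2.04 CPM in DKO larvae, against 5.22, 5.65 and 6.44 CPM in TL controls (log2FC −1.59 ± 0.20, edgeR adjusted p = 0.000679). The fallen members had log2FC between −1.68 and −0.76. They included the proliferation markers PCNA (−0.76) and mki67 (−0.97), chosen after their values were seen. In the single knock-outs 12 members fell in panx1a-/- against TL (2.89% of all genes there) and 2 in panx1b-/- (3.16%). In direct tests, 42 of the 87 members were lower in the DKO than in panx1b-/- larvae (5.48% of all genes), with a median log2FC of −1.05. Against panx1a-/- larvae the median was −0.13 and 1 member was higher in the DKO (2.58%). The count of fallen members against TL was 16 without TL replicate 3 and 18 without DKO replicate 3.

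Circadian clock genes changed in both directions. The clock of fish runs in most tissues and is set by light, with Bmal and Clock proteins driving the Per and Cry repressors that shut them off. Of 29 repressor and output genes, 14 fell (48.3%) and 4 rose (13.8%, against 2.81% of all genes). Of 14 genes in the activator list, 7 rose (50%) and none fell, with 0 at an unadjusted p under 0.05 in that direction (edgeR) and 0 with DESeq2. The name of this list is loose, as it also holds nfil3-5, a relative of a repressor. PER1 (ENSDARG00000056885) had 30.3, 25.1 and 21.4 CPM in DKO larvae, against 68.6, 78.1 and 65.2 CPM in TL controls (log2FC −1.46 ± 0.13, edgeR adjusted p = 6.28e-05), and PER1 (ENSDARG00000012499) had 45.4, 47.3 and 43.3 CPM in DKO larvae, against 88.4, 110.5 and 100.5 CPM in TL controls (log2FC −1.14 ± 0.10, edgeR adjusted p = 5.47e-05). The Clock repressor gene ciarta had 36.2, 35.09 and 33.7 CPM in DKO larvae, against 72.7, 78.3 and 75.2 CPM in TL controls (log2FC −1.11 ± 0.08, edgeR adjusted p = 1.91e-05), and dbpb, a PAR bZIP factor driven by the clock, had a log2FC of −0.97. In the activator list, nfil3-5, a relative of mammalian NFIL3, which represses the genes that PAR bZIP factors activate, had 122.9, 135 and 134 CPM in DKO larvae, against 50.7, 57.9 and 52.1 CPM in TL controls (log2FC 1.29 ± 0.09, edgeR adjusted p = 1.33e-05), and rorcb, a nuclear receptor that activates Bmal transcription in mammals, had 149, 153 and 163 CPM in DKO larvae, against 81.2, 77.3 and 71.2 CPM in TL controls (log2FC 1.02 ± 0.09, edgeR adjusted p = 4.93e-05). CLOCK (0.73, ENSDARG00000011703) and rorca (0.52) rose by less. The risen members of the repressor and output list were cry3b (1.08), cry3a (0.65), cry4 (0.62) and nr1d4b (0.65), and whether each acts as a repressor was not tested. The calls of the last pair were lost, for cry4 without DKO replicate 3 or TL replicate 3 (log2FC 0.58 to 0.59) and for nr1d4b without DKO replicate 2 or 3 (log2FC 0.63 to 0.65). Set beside each other, 1 of these repressor and output genes fell in panx1a-/- against TL (2.89% of all genes did) and 15 in panx1b-/- (3.16%). In direct tests, 15 were lower in the DKO than in panx1a-/- larvae (3.76% of all genes), with a median log2FC of −0.58. Against panx1b-/- larvae the median was 0.10, and 4 were higher in the DKO (3.84%). For nfil3-5 the DKO was above both, with a log2FC of 1.14 against panx1a-/- and 0.67 against panx1b-/- (edgeR adjusted p = 3.94e-06 and 0.000852). The count of fallen repressor and output genes was 9 without DKO replicate 3, and that of risen ones 2 without DKO replicate 3. The count of risen members of the activator list was 4 without DKO replicate 3 or TL replicate 3. The hour of collection is not in the labels, and its part in these values was not tested.

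**Figure D4:**
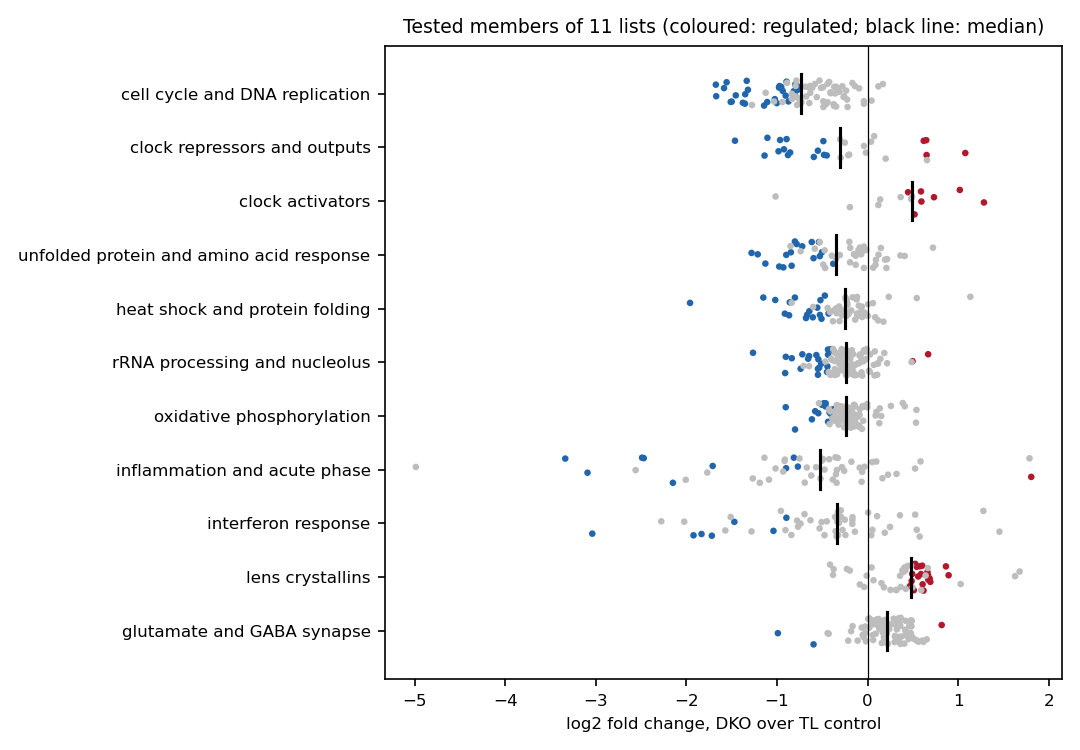
Log2 fold change (DKO over TL control) of every tested member of 11 of the lists, with blue points for members that fell, red for members that rose and grey for the rest. Black lines mark the medians, from −0.73 for the cell cycle to 0.49 for clock activators.

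Some genes of the unfolded protein and amino acid responses fell, and none of them rose by the rule used. Of 51 genes that cells induce when the endoplasmic reticulum is overloaded or amino acids are short, 17 fell (33.3%), with a median of −0.35 over the list. HYOU1, a chaperone of the endoplasmic reticulum, had 26.7, 31.3 and 30.0 CPM in DKO larvae, against 54.96, 50.2 and 58.7 CPM in TL controls (log2FC −0.90 ± 0.10, edgeR adjusted p = 0.000225). ASNS, which makes asparagine, had 4.77, 5.72 and 4.57 CPM in DKO larvae, against 10.9, 11.5 and 12.4 CPM in TL controls (log2FC −1.21 ± 0.13, edgeR adjusted p = 0.000246), and mthfd2, a mitochondrial enzyme of one-carbon metabolism, had 2.95, 3.49 and 2.93 CPM in DKO larvae, against 6.50, 8.26 and 8.004 CPM in TL controls (log2FC −1.28 ± 0.16, edgeR adjusted p = 0.000557). The chaperone gene calr3b had 28.4, 37.9 and 33.1 CPM in DKO larvae, against 81.9, 59.6 and 75.9 CPM in TL controls (log2FC −1.13 ± 0.14, edgeR adjusted p = 0.000459). The DKO and TL libraries did not overlap in these, as in every regulated gene and in 35.6% of all genes tested. Of 61 heat shock and folding genes, 17 fell (27.9%). The small heat shock protein gene hspb6 had 2.54, 2.84 and 2.66 CPM in DKO larvae, against 12.2, 7.40 and 11.7 CPM in TL controls (log2FC −1.96 ± 0.20, edgeR adjusted p = 0.00017). HSPA5, the main chaperone of the endoplasmic reticulum and a member of both lists, had 55.8, 70.32 and 65.8 CPM in DKO larvae, against 105, 112 and 118 CPM in TL controls (log2FC −0.80 ± 0.10, edgeR adjusted p = 0.000576). HSPA4 (ENSDARG00000004754, −0.86) and the chaperonin gene TCP1 (−0.64) fell too. An unadjusted edgeR p under 0.05 towards higher levels was found for 4 genes of the first list and 2 of the second, and DESeq2 called 1 and 1 risen. With all 12 libraries in 1 fit, calr3b and HSPA4 lost their calls. The count for the first list was 11 without TL replicate 3, and that for the second 11 with DKO replicates 2 and 3 summed, 9 without DKO replicate 3 or TL replicate 3 and 11 without DKO replicate 1.

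Genes of ribosome production were lower in the DKO. Of 111 genes of rRNA processing and the nucleolus, 20 fell (18%) and 2, SDAD1 (0.67) and EXOSC1 (0.50), rose. The median of the list was −0.24. The gene tsr1 had 39.4, 38.5 and 35.6 CPM in DKO larvae, against 87.0, 88.7 and 97.1 CPM in TL controls (log2FC −1.27 ± 0.09, edgeR adjusted p = 1.33e-05), and NOP58, a core protein of the small RNPs that methylate rRNA, had 54.7, 53.6 and 53.4 CPM in DKO larvae, against 97.0, 108 and 99.2 CPM in TL controls (log2FC −0.91 ± 0.08, edgeR adjusted p = 6.38e-05). DKC1, the pseudouridine synthase of such particles, had 32.8, 30.3 and 30.9 CPM in DKO larvae, against 55.4, 55.4 and 57.2 CPM in TL controls (log2FC −0.84 ± 0.08, edgeR adjusted p = 0.000117), and RRS1 had a log2FC of −0.90. As in every regulated gene that fell, each DKO library was below the lowest TL library in them. Of 104 spliceosome genes, 7 fell (6.73%, near the 5.28% of all genes), and the median of that list was −0.09. Among the 7 were SNRPG (−1.03), SNRPD2 (−0.89) and SNRPD3 (ENSDARG00000076283, −0.72) of the Sm ring. The name of this list is loose, as it also holds the U7 snRNP gene LSM10, which alone rose (0.962%, against 2.81% of all genes). The count of fallen rRNA processing genes was 9 with DKO replicates 2 and 3 summed, 7 without TL replicate 3, 8 without DKO replicate 2 or 3 and 12 without TL replicate 2, and that of risen ones 1 with filterByExpr or with at least 10 counts in all libraries or with DKO replicates 2 and 3 summed and 1 without DKO replicate 1 or 2 or TL replicate 2 or 3. The call for EXOSC1 was lost without DKO replicate 1 or 2 or TL replicate 2 or 3 (log2FC 0.37 to 0.54), and with either stricter filter on low counts.

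Genes of mitochondrial respiration were slightly lower. Of 95 genes of oxidative phosphorylation, 85 had a negative log2FC (49.9% of all genes did), 14 fell (14.7%) and none rose, with 2 at an unadjusted edgeR p under 0.05 in that direction and 1 with DESeq2. UQCRB, of respiratory complex III, had 52.3, 52.7 and 48.5 CPM in DKO larvae, against 79.1, 72.9 and 77.0 CPM in TL controls (log2FC −0.58 ± 0.08, edgeR adjusted p = 0.00112). The ATP synthase genes ATP5MG (−0.50) and atp5mc1 (−0.80) and the cytochrome oxidase gene cox8a (−0.48) also fell. These differences were under 2-fold, and the number of calls was 3 with DKO replicates 2 and 3 summed, 3 without DKO replicate 3, 4 without DKO replicate 2 or TL replicate 3, 9 without TL replicate 1 and 22 without TL replicate 2. The call for cox8a was lost without DKO replicate 2 or 3 or TL replicate 3 (log2FC −0.48 to −0.43). Among genes of cell death, the cytochrome c gene cycsb had 70.5, 73.9 and 72.1 CPM in DKO larvae, against 137, 133 and 138 CPM in TL controls (log2FC −0.91 ± 0.08, edgeR adjusted p = 4.54e-05), and diabloa, released from mitochondria with it, had 46.6, 45.1 and 41.8 CPM in DKO larvae, against 73.9, 69.9 and 88.3 CPM in TL controls (log2FC −0.80 ± 0.10, edgeR adjusted p = 0.000683).

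Single genes of fuel metabolism changed in both directions. UCP1, the mitochondrial uncoupling protein, rose with 1831, 1484 and 1416 CPM in DKO larvae, against 525, 491 and 548 CPM in TL controls (log2FC 1.6 ± 0.12, edgeR adjusted p = 2.6e-05). Its lowest DKO library exceeded the highest TL library by more than 2-fold. UCP1 was higher in the DKO than in either single knock-out, with a log2FC of 0.92 against panx1a-/- and 1.00 against panx1b-/- (edgeR adjusted p = 0.00176 and 0.00104). Of 31 genes of fatty acid oxidation and ketogenesis, 2 rose (6.45%, against 2.81% of all genes), with UCP1 among them. Another 6 fell (19.4%, against 5.28%), among them FABP1 (ENSDARG00000059227, −0.86), UCP2 (−0.60) and HADHB (−0.57). The lipid droplet coat gene PLIN2 had 0.908, 1.26 and 1.06 CPM in DKO larvae, against 7.12, 5.98 and 7.29 CPM in TL controls (log2FC −2.66 ± 0.19, edgeR adjusted p = 1.91e-05), with a log2FC of −2.61 in panx1a-/- and 0.04 in panx1b-/- larvae against TL. Of the genes of glucose entry and first use, HK2, a hexokinase, had 12.9, 13.2 and 12.6 CPM in DKO larvae, against 25.4, 23.2 and 26.8 CPM in TL controls (log2FC −0.96 ± 0.10, edgeR adjusted p = 0.000156), and both SLC2A1 glucose transporter genes fell (−0.89 for ENSDARG00000001437 and −0.81 for ENSDARG00000007412). Of the genes of glucose production, the fructose bisphosphatase gene fbp1b had 269, 239.7 and 244 CPM in DKO larvae, against 147, 128 and 145 CPM in TL controls (log2FC 0.84 ± 0.09, edgeR adjusted p = 0.000253), and fbp1a (0.76) and the glucose-6-phosphatase gene g6pc1a.1 (0.99) rose with it. In all, 4 of 53 genes of glycolysis and gluconeogenesis fell (7.55%, near the 5.28% of all genes) and 5 rose (9.43%, against 2.81%). The median of this list was −0.04. The list itself does not divide glucose entry from production, and ldhbb was also among the genes that rose. The call for g6pc1a.1 was lost without DKO replicate 1 (log2FC 0.86). The count of fallen fatty acid oxidation genes was 3 without TL replicate 3, that of fallen glucose genes 7 with DESeq2 and 7 without TL replicate 2 and that of risen glucose genes 3 without DKO replicate 1.

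Some iron and heme genes changed, on both the synthesis and the breakdown side. HMOX1, which degrades heme, rose as given above, and blvrb, which acts on the bilin products of heme, had 6.04, 6.05 and 5.76 CPM in DKO larvae, against 16.8, 16.9 and 15.5 CPM in TL controls (log2FC −1.46 ± 0.11, edgeR adjusted p = 2.03e-05). ALAS1, the first enzyme of heme synthesis outside red cells, had 68.0, 67.8 and 71.9 CPM in DKO larvae, against 138, 105 and 145 CPM in TL controls (log2FC −0.90 ± 0.12, edgeR adjusted p = 0.000705). The transferrin receptor genes tfr1a and tfr1b, which take up iron, fell, with 19.2, 19.9 and 21.1 CPM in DKO larvae, against 50.4, 35.204 and 45.0 CPM in TL controls for tfr1b (log2FC −1.12 ± 0.13, edgeR adjusted p = 0.000319) and a log2FC of −1.10 for tfr1a. The hormone gene hamp, hepcidin, which lowers iron release into the blood, rose with 9.76, 5.31 and 7.31 CPM in DKO larvae, against 1.504, 2.23 and 2.60 CPM in TL controls (log2FC 1.81 ± 0.26, edgeR adjusted p = 0.00121). The globin genes HBE1 (ENSDARG00000115405, 1.98) and hbae3 (0.75) rose, while the summed level of the erythrocyte markers was 73.22, 61.34 and 60.16 CPM in DKO larvae, against 58.28, 47.78 and 55.99 CPM in TL controls, and none of its 4 tested genes passed both cut-offs. Reads can be split between similar globin copies. The part of red cell number in the globin values was not tested. Of 32 genes of the globin and heme list, 5 fell (15.6%, against 5.28% of all genes) and 3 rose (9.38%, against 2.81%). In this list 16 genes had a negative and 16 a positive log2FC, and the median was −0.02. The count of risen genes was 5 with DESeq2 or with no minimum count or with all 12 libraries in 1 fit and 1 without TL replicate 3.

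**Figure D5:**
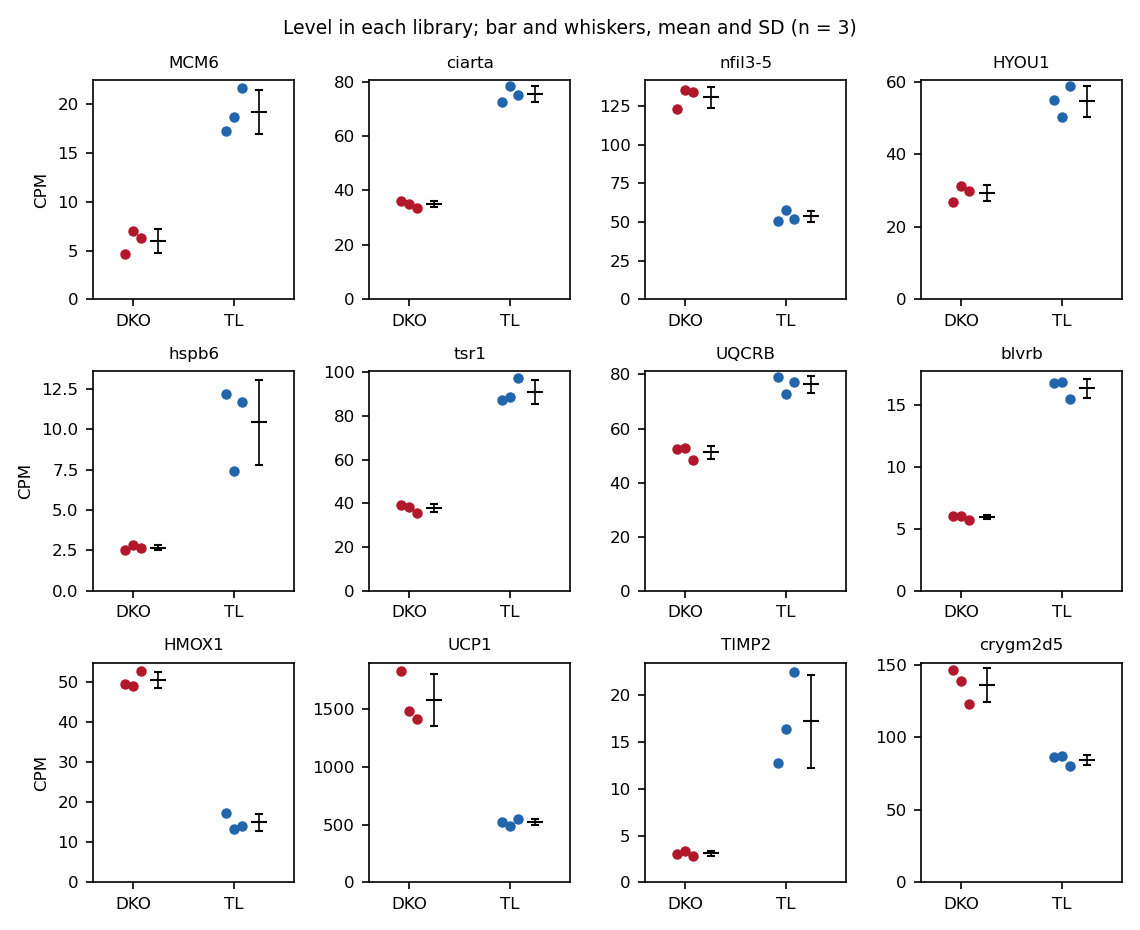
Level in CPM in each of the 3 DKO libraries (red) and the 3 TL control libraries (blue) for the lowest-p gene of 12 lists, with the mean and SD (n = 3) in black. All axes start at 0. The genes were picked as regulated, and no regulated gene had overlap between the DKO and TL libraries (35.6% of all genes tested had none).

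Inflammatory genes were lower in the DKO, with wide spread among the TL libraries. Of 53 genes of inflammation and the acute phase, 9 fell (17%) and hamp rose, and the median was −0.52. TIMP2 (ENSDARG00000075261), named for an inhibitor of matrix metalloproteinases, had 3.09, 3.40 and 2.84 CPM in DKO larvae, against 12.7, 16.4 and 22.4 CPM in TL controls (log2FC −2.47 ± 0.21, edgeR adjusted p = 4.95e-05), and the C-reactive protein gene crp3 had 3.31, 2.42 and 3.28 CPM in DKO larvae, against 14.2, 10.201 and 15.6 CPM in TL controls (log2FC −2.15 ± 0.19, edgeR adjusted p = 6.62e-05). Both kept their calls when any 1 library was left out, but the call for TIMP2 was lost with all 12 libraries in 1 fit. MMP9, a collagen-degrading protease of activated leukocytes, had 4.77, 8.75 and 3.68 CPM in DKO larvae, against 19.7, 21.7 and 131 CPM in TL controls (log2FC −3.34 ± 0.70, edgeR adjusted p = 0.00889), and il1b, a cytokine activated by the inflammasome, had 1.95, 1.44 and 1.37 CPM in DKO larvae, against 7.12, 3.70 and 29.3 CPM in TL controls (log2FC −3.09 ± 0.68, edgeR adjusted p = 0.0114). TL replicate 3 was far above the other TL libraries in both. The call for MMP9 was lost without DKO replicate 1, 2 or 3 (log2FC −3.77 to −3.10), and that for il1b without DKO replicate 1, 2 or 3 (log2FC −3.27 to −2.99). Both calls were also lost with all 12 libraries in 1 fit and with DKO replicates 2 and 3 summed. That for il1b was lost with either stricter filter on low counts as well. Without TL replicate 3 both calls were kept, at a smaller log2FC of −1.85 for MMP9 and −1.76 for il1b. The protease gene mmp13a (−2.49) and CEBPB (−0.77) also fell, the first losing its call without DKO replicate 1 (log2FC −2.38) and both with all 12 libraries in 1 fit. Without TL replicate 3 the log2FC of mmp13a was −1.86. Of 53 interferon response genes, 7 fell (13.2%) and none rose (5 at an unadjusted edgeR p under 0.05 and 1 with DESeq2). The transcription factor gene irf1a had 0.862, 1.02 and 0.576 CPM in DKO larvae, against 3.89, 1.99 and 3.41 CPM in TL controls (log2FC −1.92 ± 0.31, edgeR adjusted p = 0.0025), and ifi27.2 had 0.0908, 0.465 and 0.532 CPM in DKO larvae, against 4.60, 1.61 and 2.85 CPM in TL controls (log2FC −3.04 ± 0.50, edgeR adjusted p = 0.00269). The antiviral GTPase gene mxc (−1.72) and nlrc5 (−1.83), an activator of MHC class I genes in mammals, fell too, with calls lost for mxc without DKO replicate 3 or TL replicate 3 (log2FC −1.69 to −1.51) and for nlrc5 without DKO replicate 1 or 2 or TL replicate 1 or 3 (log2FC −1.86 to −1.59) and with all 12 libraries in 1 fit. The summed level of the 10 tested neutrophil and macrophage markers was 25.01, 27.23 and 24.12 CPM in DKO larvae, against 60.4, 26.19 and 45.32 CPM in TL controls, so TL replicate 2 lay among the DKO libraries. None of these markers passed both cut-offs, 9 of the 10 had a negative log2FC, and their part in the inflammatory values was not tested. The inflammation count was 4 with DKO replicates 2 and 3 summed, 4 without DKO replicate 1, 2 or 3 and 18 without TL replicate 2. The interferon count was 4 with at least 10 counts in all libraries or with DKO replicates 2 and 3 summed, 2 without TL replicate 3, 3 without DKO replicate 1, 2 or 3 or TL replicate 1 and 13 without TL replicate 2.

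Few genes of ATP signalling, the pathway that pannexin channels feed, passed the test. Of 61 purinergic receptor and nucleotide handling genes, 5 fell (8.2%, against 5.28% of all genes) and 2 rose (3.28%, against 2.81%), both shares near those of all genes. SLC29A2, a nucleoside transporter, had 1.23, 1.16 and 1.24 CPM in DKO larvae, against 3.89, 3.99 and 4.23 CPM in TL controls (log2FC −1.73 ± 0.18, edgeR adjusted p = 0.000211). The alkaline phosphatase gene alp3 had 48.3, 56.2 and 62.2 CPM in DKO larvae, against 16.9, 19.7 and 24.7 CPM in TL controls (log2FC 1.44 ± 0.14, edgeR adjusted p = 0.000137). The receptor gene p2rx7, the P2X receptor most often tied to Panx1 in mammals, had 5.36, 4.65 and 4.79 CPM in DKO larvae, against 7.35, 7.83 and 7.97 CPM in TL controls (log2FC −0.65 ± 0.13, edgeR adjusted p = 0.0074), and CALHM2, of another family of large-pore channels, had 2.27, 2.51 and 2.08 CPM in DKO larvae, against 4.65, 4.13 and 4.84 CPM in TL controls (log2FC −0.99 ± 0.17, edgeR adjusted p = 0.00345). P2RX4 (ENSDARG00000044752) fell as well (−0.73, named after its value was seen), and SLC29A1 (ENSDARG00000054447) rose (0.46). Calls were lost for p2rx7 without DKO replicate 2 or 3 or TL replicate 2 or 3 (log2FC −0.64 to −0.61), for CALHM2 without DKO replicate 3 or TL replicate 3 (log2FC −0.93) and for SLC29A1 without DKO replicate 2 or 3 or TL replicate 3 (log2FC 0.43 to 0.49). The fallen count was 2 without DKO replicate 3 or TL replicate 3, and the risen count 4 with DESeq2 or with all 12 libraries in 1 fit, 1 with DKO replicates 2 and 3 summed, 1 without DKO replicate 2 or 3 or TL replicate 3 and 4 without TL replicate 1. Of 34 genes for connexins, the proteins of gap junctions, 2 fell (5.88%), namely gjc4a.2 (7.99, 5.63 and 6.12 CPM in DKO larvae, against 15.0, 16.8 and 15.1 CPM in TL controls, log2FC −1.25 ± 0.14, edgeR adjusted p = 0.000317) and gja13.2 (−1.53). The call for gja13.2 was lost without DKO replicate 1, 2 or 3 or TL replicate 1 (log2FC −1.58 to −1.16), and the connexin count was 1 without DKO replicate 1, 2 or 3.

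Neuronal gene lists held few calls. Of 92 genes of glutamate, glycine and GABA synapses, 2 fell and 1 rose, both shares below those of all genes (5.28% and 2.81%). Those that fell were the glycine receptor gene glra4b (−0.99) and the glutamate transporter gene SLC1A2 (ENSDARG00000052138, −0.60). The glutamate receptor gene GRM5 (ENSDARG00000102067, 0.82) rose. In this list 78 genes had a positive and 14 a negative log2FC. The median of the list was 0.22, the count of fallen genes was 0 without DKO replicate 1 or 2 and 1 without DKO replicate 3 or TL replicate 1, 2 or 3, and that of risen genes 0 without DKO replicate 2 or 3 or TL replicate 3, 4 without DKO replicate 1 and 18 without TL replicate 2. Calls were lost for glra4b without DKO replicate 1 or 2 or TL replicate 3 (log2FC −0.98 to −0.90), for SLC1A2 without DKO replicate 1, 2 or 3 or TL replicate 1 or 2 (log2FC −0.65 to −0.48) and for GRM5 without DKO replicate 2 or 3 or TL replicate 3 (log2FC 0.74 to 0.77). Of 50 neuropeptide and hormone genes 1 fell (2%), nppa, which is a heart peptide (−0.95). Its call was lost without DKO replicate 1, 2 or 3 or TL replicate 1 or 3 (log2FC −0.96 to −0.81). Among 50 immediate early genes, which respond to activity and other stimuli within minutes, 7 fell (14%) and none rose (2 at an unadjusted edgeR p under 0.05 and 0 with DESeq2). FOSL1 had 1.73, 2.42 and 2.22 CPM in DKO larvae, against 8.54, 7.26 and 10.96 CPM in TL controls (log2FC −2.08 ± 0.20, edgeR adjusted p = 0.000119), NR4A1 had 9.71, 10.1 and 7.54 CPM in DKO larvae, against 18.5, 19.6 and 21.3 CPM in TL controls (log2FC −1.12 ± 0.13, edgeR adjusted p = 0.000325), and JUNB (ENSDARG00000074378, −0.84) and NR4A3 (−0.84) fell by less. The DKO and TL libraries did not overlap in any of these, which holds for every regulated gene and for 35.6% of all genes tested. In a fit of all 12 libraries the calls for FOSL1 and JUNB were lost.

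Among genes of the eye, some crystallins rose and some visual cycle genes fell. Of 50 lens crystallin genes, 19 rose (38%) and none fell, with 0 at an unadjusted edgeR p under 0.05 in that direction and 0 with DESeq2, and the median was 0.48. The gamma crystallin gene crygm2d5 had 146, 139 and 123.2 CPM in DKO larvae, against 86.1, 87.0 and 80.5 CPM in TL controls (log2FC 0.69 ± 0.09, edgeR adjusted p = 0.000714), and crygm2d20 had 383, 362 and 324 CPM in DKO larvae, against 215, 231 and 226 CPM in TL controls (log2FC 0.67 ± 0.09, edgeR adjusted p = 0.00102). All were under 2-fold, with log2FC from 0.47 to 0.90, and many of these genes are near-identical copies between which reads can be split. The alpha crystallin gene CRYAA (ENSDARG00000053502) had 13.6, 19.2 and 19.4 CPM in DKO larvae, against 15.8, 19.9 and 15.1 CPM in TL controls and did not pass the test (log2FC 0.05 ± 0.15, edgeR adjusted p = 0.869). The summed level of the 7 lens markers, of which 3 rose, was 1305, 1392 and 1275 CPM in DKO larvae, against 866, 1017 and 894 CPM in TL controls. The 3 that rose are themselves crystallin genes, so this sum is not independent of the crystallin values. The other lens markers MIP (log2FC 0.19 for each of its genes) and lim2.1 (0.45) did not pass both cut-offs. In direct tests, 20 of 50 crystallins were higher in the DKO than in panx1a-/- larvae (2.58% of all genes) and 12 of 50 were higher than in panx1b-/- larvae (3.84%). The crystallin count against TL was 3 with all 12 libraries in 1 fit, 11 with DKO replicates 2 and 3 summed, 9 without TL replicate 3, 10 without TL replicate 1 and 11 without DKO replicate 2. Of 54 phototransduction genes, 2 fell (3.7%, against 5.28% of all genes), the cone channel gene CNGA3 (ENSDARG00000012297, −0.84) and guca1c (−0.62). The guca1c gene is also among the regulated genes near panx1a given below. Another 3 rose (5.56%, against 2.81%), GUCA1A (ENSDARG00000101567, 1.49) and both genes named GNGT2 (0.48 for ENSDARG00000103543 and 0.64 for ENSDARG00000010680). Of 29 genes of the visual cycle, which restores the chromophore of opsins, 4 fell, among them RPE65 (ENSDARG00000007480) with 51.2, 41.0 and 42.1 CPM in DKO larvae, against 84.4, 63.1 and 69.4 CPM in TL controls (log2FC −0.69 ± 0.12, edgeR adjusted p = 0.0042) and rlbp1b (−0.62). The calls were lost for RPE65 without DKO replicate 2 or 3 (log2FC −0.65 to −0.63), for rlbp1b without DKO replicate 3 (log2FC −0.54), and for GNGT2 (ENSDARG00000103543) without DKO replicate 2 (log2FC 0.44). The calls for this GNGT2 gene and crygm2d20 were also lost with all 12 libraries in 1 fit. The fallen visual cycle count was 2 with DKO replicates 2 and 3 summed, 0 without DKO replicate 3, 1 without DKO replicate 2 and 7 without TL replicate 2, and the risen phototransduction count 5 with DESeq2, 5 without DKO replicate 1 and 6 without TL replicate 2.

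A minority of the genes of muscle, connective tissue, skin and pigment passed the test, most of them as decreases. Of 40 slow and cardiac sarcomere genes, 5 fell (12.5%, against 5.28% of all genes) and none rose. Towards higher levels, 0 had an unadjusted edgeR p under 0.05, and DESeq2 called 0. The cardiac troponin gene tnnc1a had 1.95, 2.23 and 1.68 CPM in DKO larvae, against 6.59, 6.36 and 7.79 CPM in TL controls (log2FC −1.82 ± 0.17, edgeR adjusted p = 0.000114), and the slow myosin gene smyhc1 had 219, 247 and 218 CPM in DKO larvae, against 370.2, 308 and 385 CPM in TL controls (log2FC −0.64 ± 0.11, edgeR adjusted p = 0.00295). Of 57 collagen genes, 8 fell (14%), among them col5a2b (−1.17) and COL10A1 (ENSDARG00000054753, −1.01), and col7a1 rose (0.47). The collagen median was −0.37. Of 40 genes of keratins and epidermis, 7 fell (17.5%), krt18a.1 (−0.58) among them, and krt94 rose (0.57), while 18 had a positive log2FC and the median was −0.01. The 5 keratinocyte markers, none of which passed both cut-offs, all had a positive log2FC and summed to 19300, 14370 and 15210 CPM in DKO larvae, against 12010, 12700 and 13770 CPM in TL controls. In the epidermis list AGR2, a folding factor of mucus-secreting cells, had 2.13, 2.75 and 2.62 CPM in DKO larvae, against 10.1, 7.78 and 9.25 CPM in TL controls (log2FC −1.86 ± 0.17, edgeR adjusted p = 6.73e-05), and the tight junction gene cldn1 had 54.0, 33.6 and 37.4 CPM in DKO larvae, against 92.0, 79.3 and 84.8 CPM in TL controls (log2FC −1.03 ± 0.15, edgeR adjusted p = 0.00154). The guanine nucleotide gene pnp4a, a marker of the reflective iridophores, had 4.45, 4.51 and 4.48 CPM in DKO larvae, against 11.4, 8.26 and 9.996 CPM in TL controls (log2FC −1.14 ± 0.15, edgeR adjusted p = 0.000688). For gch2, which makes the pteridine precursor of yellow pigment cells, TL spread widely, with 4.22, 4.89 and 4.96 CPM in DKO larvae, against 8.27, 24.9 and 18.0 CPM in TL controls (log2FC −1.86 ± 0.32, edgeR adjusted p = 0.00342), and its call was lost without DKO replicate 1 (log2FC −1.79). The summed level of the 8 pigment cell markers was 276, 224 and 221 CPM in DKO larvae, against 289, 274 and 294 CPM in TL controls, with overlap, and 3 of the 8 fell. The 6 slow muscle markers, of which 2 fell, summed to 464, 510.3 and 444 CPM in DKO larvae, against 692, 578 and 725 CPM in TL controls. All 5 heart markers had a negative log2FC, and nppa alone of them passed both cut-offs. They summed to 31.6, 30.5 and 32.2 CPM in DKO larvae, against 47.8, 39.5 and 44.1 CPM in TL controls. The part of cell numbers in these values was not tested. The count of fallen slow and cardiac genes was 3 with DKO replicates 2 and 3 summed, 2 without DKO replicate 3, 3 without DKO replicate 1 or 2 or TL replicate 3 and 10 without TL replicate 2, the collagen count 15 with DESeq2, 3 with DKO replicates 2 and 3 summed, 3 without DKO replicate 3 or TL replicate 3, 4 without DKO replicate 2 and 30 without TL replicate 2, and the count of fallen keratin and epidermis genes 4 with DKO replicates 2 and 3 summed and 4 without DKO replicate 2 or 3 or TL replicate 3. The call for smyhc1 was lost without DKO replicate 3 (log2FC −0.60), and that for col7a1 without DKO replicate 1 or 2 or TL replicate 3 (log2FC 0.43 to 0.51) and with all 12 libraries in 1 fit.

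Liver and gut genes rose or fell singly. Of 60 genes for proteins that the liver secretes, 7 rose (11.7%, against 2.81% of all genes) and 3 fell (5%, near the 5.28% of all genes). The fetuin gene ahsg1 had 28.1, 29.0 and 24.2 CPM in DKO larvae, against 9.20 to 10.6 CPM in the 3 TL controls (log2FC 1.44 ± 0.11, edgeR adjusted p = 2.57e-05), and ahsg2 had 23.5, 14.01 and 17.2 CPM in DKO larvae, against 8.01, 3.84 and 6.87 CPM in TL controls (log2FC 1.54 ± 0.25, edgeR adjusted p = 0.00232). Of 28 genes for enzymes of the exocrine pancreas, 3 rose (10.7%) and 1 fell (3.57%). The amylase gene amy2al2 had 208, 159.8 and 167 CPM in DKO larvae, against 41.5, 62.9 and 44.9 CPM in TL controls (log2FC 1.84 ± 0.16, edgeR adjusted p = 5.64e-05), and amy2al1 (2.2) and the elastase gene cela1.3 (1.75) rose with it. The elastase gene ela3l fell, with 415, 269 and 297 CPM in DKO larvae, against 522, 495 and 532 CPM in TL controls (log2FC −0.66 ± 0.15, edgeR adjusted p = 0.0117), and its call was lost without DKO replicate 2 or 3 or TL replicate 1 or 3 (log2FC −0.64 to −0.54), and also with DESeq2 size factors in edgeR and with either stricter filter on low counts. The amy2al2 gene was also above TL in panx1a-/- (1.71) and panx1b-/- larvae (1.97), while for amy2al1 these values were 0.75 and −1.49. The pair of amylase genes is near-identical in name and may share reads. The lipoprotein gene apoa4b.3, expressed in the gut, had 2.18, 2.05 and 2.57 CPM in DKO larvae, against 8.36, 15.1 and 14.1 CPM in TL controls (log2FC −2.46 ± 0.23, edgeR adjusted p = 9.75e-05). Of 35 genes of intestinal uptake it alone fell (2.86%, against 5.28% of all genes). SLC6A19 (ENSDARG00000056719, 0.75) and DGAT2 (0.63) of this list rose (5.71%, against 2.81%). In the cholesterol list 2 of 28 fell (7.14%, near the 5.28% of all genes) and 1 rose (3.57%, against 2.81%). Of these, the LDL receptor gene ldlrb had 11.3, 13.2 and 12.06 CPM in DKO larvae, against 23.2, 24.5 and 23.2 CPM in TL controls (log2FC −0.96 ± 0.10, edgeR adjusted p = 0.000189). The calls for DGAT2 were lost without DKO replicate 2 (log2FC 0.59), the count of risen liver genes was 12 with DESeq2, 4 with at least 10 counts in all libraries or with DKO replicates 2 and 3 summed, 3 without DKO replicate 1 or 2, 4 without DKO replicate 3 and 12 without TL replicate 1, and that of fallen liver genes 1 with all 12 libraries in 1 fit or with DKO replicates 2 and 3 summed, 0 without TL replicate 3 and 1 without DKO replicate 1, 2 or 3.

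Genes of detoxification changed in both directions. In the oxidative and xenobiotic list 9 of 76 fell (11.8%) and 7 rose (9.21%). The glutathione transferase gene gsto2 had 8.22, 6.66 and 7.76 CPM in DKO larvae, against 19.03, 21.8 and 26.5 CPM in TL controls (log2FC −1.57 ± 0.14, edgeR adjusted p = 7.48e-05), and nfe2l2b, of the Nrf2 family of stress regulators, had 7.58, 5.82 and 7.85 CPM in DKO larvae, against 16.5, 12.3 and 15.0 CPM in TL controls (log2FC −1.05 ± 0.15, edgeR adjusted p = 0.00133). The cytochrome P450 genes of this list moved apart. Its P450 genes cyp2ad6 (−0.69), cyp1c1 (−1.32) and CYP1B1 (−1.01) fell, and cyp2p9 (1.17), cyp2aa7 (0.76) and cyp2aa12 (0.72) rose, where cyp1c1 and CYP1B1, targets of the aryl hydrocarbon receptor like ahrra, were named after their values were seen. Of 37 genes of the glucocorticoid and stress axis, 5 fell (13.5%, against 5.28% of all genes). Among them were the pair of PER1 genes and the glucocorticoid-induced chaperone gene FKBP5 (−1.02). NR3C2, the mineralocorticoid receptor, alone rose (0.56), which is 2.7% of the list against 2.81% of all genes. In this list 22 genes had a positive log2FC, and the median was 0.09. The call for FKBP5 was lost without DKO replicate 1 or 3 or TL replicate 3 (log2FC −1.06 to −0.83), and the count of fallen genes of this axis was 3 without DKO replicate 3 or TL replicate 3.

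The remaining lists held smaller groups of calls. Of 124 genes of motile cilia, 3 fell (2.42%, against 5.28% of all genes), with CCDC39 (−1.81) among them. Another 6 rose (4.84%, against 2.81%), with pih1d2 (2.71) among them. In the list of inflammasome and cell death genes 8 of 51 fell (15.7%), among them casp20 (−1.28), and BNIP3L (ENSDARG00000025468), a receptor for the removal of mitochondria, rose with 31.2, 32.9 and 31.6 CPM in DKO larvae, against 16.2, 17.7 and 18.4 CPM in TL controls (log2FC 0.87 ± 0.09, edgeR adjusted p = 0.000205). Genes of polymorphic immune families differ between fish lines in number and sequence. Of 131 tested, 10 fell (7.63%, near the 5.28% of all genes) and 1 rose (0.763%, against 2.81%), mhc1laa (1.15). Both mhc1lfa (−2.74) and mhc2d8.46a (−2.55) fell, and sequence differences between the lines and expression cannot be told apart there. The call for mhc1lfa was lost without DKO replicate 3 (log2FC −2.41). Of 39 fast muscle genes 3 fell (7.69%), and of 51 genes of monoamine and melatonin synthesis 1 fell (1.96%), which was gch2. Of 25 genes of fatty acid and triglyceride synthesis 1 fell (4%), PLIN2, and 2 rose (8%). The count of fallen epidermis genes was 4 with DKO replicates 2 and 3 summed and 4 without DKO replicate 2 or 3 or TL replicate 3, that of fallen polymorphic immune genes 3 without DKO replicate 3, 4 without TL replicate 3, 6 without DKO replicate 2 and 18 without TL replicate 2, that of risen cilia genes 3 with DKO replicates 2 and 3 summed, 1 without TL replicate 3 and 3 without DKO replicate 1, and that of fallen cell death genes 5 with DKO replicates 2 and 3 summed and 4 without DKO replicate 2 or 3 or TL replicate 3.

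Genes next to the targeted loci were counted as well. By RefSeq gene order (assembly GRCz12tu, used for order only), 8 of the 50 tested genes nearest to panx1a, 25 on each side, were regulated (16% against 8.21% of all genes matched by name), with 4 that fell and 4 that rose. With 10 genes on each side 1 of 20 was regulated (5%), and with up to 100 on each side 20 of 159 (12.6%). Among them ANKRD49, 14 tested genes away, rose with a log2FC of 1.52, and si:dkey-83h2.2, 25 genes away, fell by 2.55 on the log2 scale. The phototransduction gene guca1c, 15 tested genes away, fell as well (−0.62). Near panx1b 5 of 50 were regulated (10%), with 3 that fell and 2 that rose, against 5% of 20 genes and 8% of 200 in the narrower and wider windows. No test was made of these shares, and 63.1% of the genes tested could be placed by name.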

How the data were processed

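RNA from separate pools of whole 6 dpf larvae was sequenced in pairs of reads, and the authors deposited 1 table of raw counts per gene for each library, with no normalization. The submitters' processing notes name bcl2fastq 2.17, FastQC 0.11.2, Trim Galore 0.4.4, TopHat2 2.0.11, HTSeq 0.6.1p2 and the build danRer11, while the study's methods describe transcript counts from another pipeline. The strand setting of the counting is not given in the sources used here, so overlapping genes on opposite strands may share reads.

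Genes with at least 1 count in all 6 libraries were tested with edgeR 4.0.16 in R 4.3.3 (TMM normalization, quasi-likelihood test, Benjamini-Hochberg adjustment over all genes tested). Regulated means an adjusted p under 0.05 and a p under 0.001. Levels are TMM-normalized CPM computed from the deposited counts, and ± after a log2FC is its standard error, taken from the F statistic. CPM is not divided by gene length. Both single knock-outs were fitted in the same way against the same TL libraries, and the DKO against each single knock-out.

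Named genes are the pannexins, the 10 of largest change in each direction at a mean of at least 1 CPM with no overlap between the lines, the 5 of lowest p in each direction at a mean of at least 10 CPM, up to 4 of lowest p in each direction per list, and the 3 of largest change without a functional name. The 5 of lowest p were taken among genes with a functional name that were not among the 10 of largest change. Other genes are said to be chosen after their values were seen. The members and the 38 lists, 36 of which the figure of list shares names, were chosen with earlier results of these data known. Symbols were matched for 28223 of 31261 genes. The fit was tested on simulated data. Alternatives were DESeq2 1.42.0, other normalizations, no filter or a stricter filter on low counts (filterByExpr of edgeR, or at least 10 counts in all libraries), other cut-offs, a replicate block, all 12 libraries in 1 fit, DKO replicates 2 and 3 summed, the 7SL RNA copies removed and each library left out. Figures were drawn with matplotlib 3.10.9. P-values measure the spread between pools. A few results, among them those of 2 lists, are not reported here. No sequences are shown.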

Additional observations from a re-analysis of the deposited data

How the results depend on the processing

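At an adjusted p under 0.05 alone, 2649 genes fell and 1671 rose. With DKO replicates 2 and 3 summed as 1 library, 845 fell and 445 rose. Leaving out 1 library gave 706 to 1740 fallen genes and 407 to 976 risen genes, with the lowest counts without TL replicate 3 and the highest without TL replicate 2. The other alternatives gave counts within 1.5 times of 1315 and 700, and DESeq2 gave 1570 and 973. No setting moved the median log2FC of all genes by more than 0.018. Of 196 regulated named genes, 134 were regulated under every alternative in which they were tested and none changed direction, while 202 of 3309 values lost the call. With DKO replicates 2 and 3 summed, the genes above that lost their calls included mucms1, MMP9, il1b, nr1d4b, RPE65, ela3l, cox8a and EXOSC1. The same held for p2rx7, SLC29A1, gja13.2, nppa, SLC1A2, GRM5 and col7a1.

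No clear pairing of the samples by replicate number was seen, though 6 libraries are too few to exclude it. Deviations of same-numbered libraries correlated at r = 0.19, 0.0614 and −0.155 over 21030 genes, and 3 of 6 libraries correlated best with their own number. With the replicate block 1491 genes fell and 870 rose, and 1909 of the 2015 calls were shared.

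With 3 libraries in each line, and 2 of the DKO libraries closer to each other than other replicates, the number of calls is set in part by single libraries. Genes with fewer than 1 count in some library were left out.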
